A study of Homo sapiens with 7 samples.

Results

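The 7 genes of neurons and neuroendocrine cells described here were read in sublines of PC-3, a human prostate cancer cell line: TH, CNTN1, DNER, NPY1R, CHGA, CHGB and SYP. They were chosen from values of the same 7 arrays, in which the first 4 of them stood out and the last 3 are textbook markers of neuroendocrine cells, so their levels and differences are given as a description with no test. The members are all probe sets that match 1 of these 7 symbols, 10 of the 54675 on the array, and the 7 genes are set beside 19775 genes with a symbol of their own. CNTN1 has 4 probe sets and each of the other 6 genes has 1.

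Total RNA was labelled with biotin and hybridised to 1 array per sample, in 3 groups by origin. The PC-3-descended group holds 3 sublines recovered from mice after intravenous injection without passing through TEM4-18. GS672.Ug was recovered from urogenital tissue after injection of PC-3. GS689.Li was recovered from liver and GS694.LAd from the left adrenal, both after injection of JD549.Ki, itself a kidney isolate of injected PC-3, so these 2 sublines share a parent. The TEM4-18-derived group holds 2 sublines recovered after injection of TEM4-18, GS683.LALN from the left axillary lymph node and JD1203.Lu from the lung. TEM4-18, the injected line with 2 arrays, was selected in culture from PC-3 by its passage through a layer of human lung microvascular endothelial cells. All 7 samples were untreated cultures that express luciferase and grew in the same medium. The parental PC-3 line was not analysed here, nor was JD549.Ki, and each subline has a single array. A gene that rose or fell, in the words used below, was higher or lower than in the line of comparison. TEM4-18 is not the parent of the PC-3-descended sublines, so origin and passage through mice cannot be told apart in that comparison. The labels conflict in places: JD1203.Lu carries the source name JD549.Ki although its description gives TEM4-18 as its parent, the design text gives lung as the organ of GS683.LALN, and the description of GS694.LAd gives its parent's name, JD549.Ki, as the name of the line itself, and that of GS689.Li leaves the line's own name blank. Precision is limited by how few arrays there are, and the labels do not say whether the TEM4-18 duplicates were separate cultures.

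The 7 genes mark different steps of neural signalling. TH encodes tyrosine hydroxylase, the rate-limiting enzyme of catecholamine synthesis. NPY1R encodes a receptor for neuropeptide Y. CNTN1 encodes contactin 1, a membrane-anchored adhesion protein of axons, and DNER encodes a neuronal transmembrane protein with EGF-like repeats that can bind Notch. CHGA and CHGB encode chromogranins, which fill the dense-core granules of endocrine cells and neurons, and SYP encodes synaptophysin of synaptic vesicles. Chromogranin A and synaptophysin are the usual stains for neuroendocrine differentiation in prostate cancer.

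Where 3 values are given for the PC-3-descended sublines without names, they are those of the urogenital, liver and adrenal sublines in that order, and 2 unnamed values for the TEM4-18-derived ones are those of lymph node and lung. Values are MAS5 signals, a linear brightness per probe set that had been scaled on each array (mean over the middle of the distribution 1500.2). A level was called above background when it exceeded the 95th percentile, on the same array, of 176 probe sets of 145 genes for smell and bitter taste receptors, hair keratin-associated proteins and beta-defensins. This ceiling was 275, 389 and 371 on the PC-3-descended arrays in the order above, 335 and 265 in GS683.LALN and JD1203.Lu, and 320 and 298 on the TEM4-18 arrays. Between 44.6% and 50.6% of all probe sets lay above it on each array. Of the 10 member probe sets, 7 lay above it on at least 1 array, beside 57.2% of all probe sets. Levels are compared between arrays within a probe set, since probe sets differ in brightness for equal amounts of RNA. In bulk RNA, fewer expressing cells and less RNA per cell cannot be told apart. As a check, 7 genes known from PC-3 (KRT8, KRT18, KRT7, KRT19, VIM, CD44 and CAV1) were above the ceiling on all 7 arrays. Of these only the keratins mark epithelium.

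**Figure D1:**
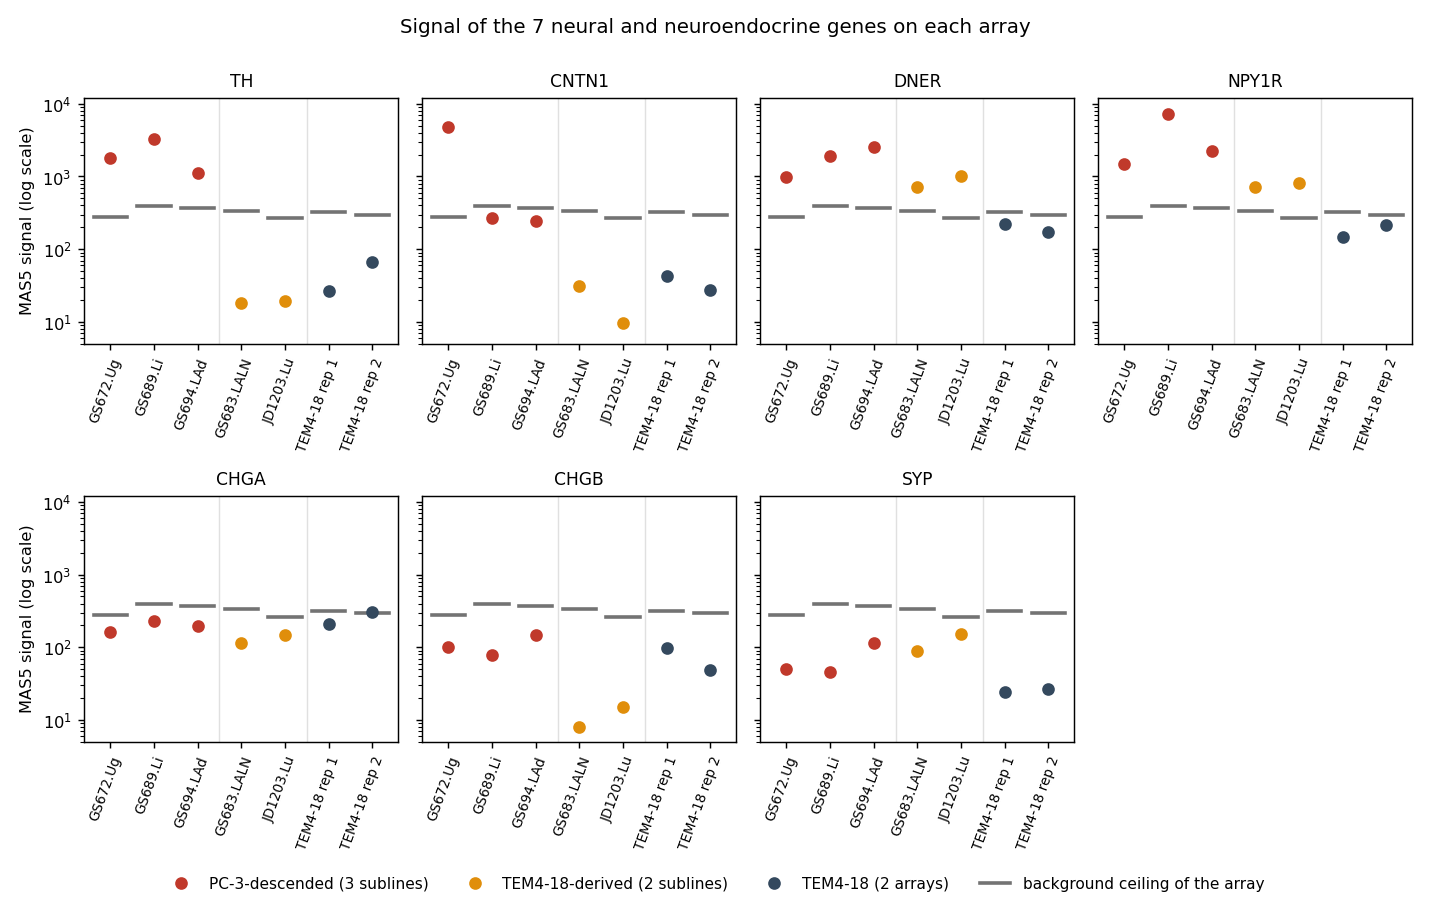
Each panel plots the MAS5 signal (log axis) of 1 gene on the 7 arrays, for CNTN1 in its brightest probe set 227209_at, with a grey bar at each array's background ceiling. TH is above the bars in the 3 PC-3-descended sublines, DNER and NPY1R in all 5 sublines recovered from mice, CNTN1 in GS672.Ug, and CHGA on 1 TEM4-18 array by a narrow margin.

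For NPY1R, which was above background on 5 arrays, and CHGA, which was above it on 1, the letters at the transcription start are shown. The promoters (250 bases before the start to 50 after it) come from RefSeq on GRCh38.p14, where 4 of the 7 members matched (CNTN1, NPY1R, CHGA and SYP). Capitals mark searched motifs. In NPY1R the capitals are the E-box CACGTG, and in CHGA they are, in order, the GC box GGGCGG, the cAMP response element TGACGTCA and the TATA-like TATATA. NPY1R lies at chr4:163332547-163332846 on the minus strand and CHGA at chr14:92922900-92923199 on the plus strand, both written 5′ to 3′ along the gene.
NPY1R: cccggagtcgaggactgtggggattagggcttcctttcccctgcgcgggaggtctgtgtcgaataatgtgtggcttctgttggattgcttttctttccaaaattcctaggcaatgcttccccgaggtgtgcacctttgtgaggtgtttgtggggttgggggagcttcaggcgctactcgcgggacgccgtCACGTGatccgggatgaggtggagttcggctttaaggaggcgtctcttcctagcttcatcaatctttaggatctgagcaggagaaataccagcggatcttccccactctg
CHGA: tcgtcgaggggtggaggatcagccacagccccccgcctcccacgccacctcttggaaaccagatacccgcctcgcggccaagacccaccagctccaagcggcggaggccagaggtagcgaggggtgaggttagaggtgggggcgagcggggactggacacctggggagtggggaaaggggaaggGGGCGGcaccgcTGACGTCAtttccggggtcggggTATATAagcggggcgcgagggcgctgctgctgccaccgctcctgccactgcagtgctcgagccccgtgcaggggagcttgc
The window of NPY1R is 55% G and C and that of CHGA 69.3%. Motifs were searched on both strands, and the matches printed do not overlap each other. The CACGTG of NPY1R begins 60 bases before the start, and 7.26% of 35116 RefSeq promoters of the same length hold that motif. The TGACGTCA of CHGA begins 54 bases before the start and is held by 1.85% of promoters. Its GGGCGG begins 66 bases before the start (45% of promoters) and its TATATA 31 bases before (3.99%). SYP held 4 GC boxes and 1 TGANTCA (7.71% of promoters). The letters of TATAAA (11.5% of promoters) and GGACAG (20.5%) were found in none of the 5 windows of these 4 genes, and the 2 windows of CNTN1 held no searched motif. A match describes the letters and is no evidence of binding.

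TH was high in the PC-3-descended sublines and at background elsewhere. The gene lies at chr11:2163929-2171815 (GRCh38.p14) and was read by probe set 208291_s_at. Its signal was 3300 in GS689.Li, 1793 in GS672.Ug and 1099 in GS694.LAd, against 18.2 in GS683.LALN and 19.7 in JD1203.Lu, and 26.9 and 66.0 in TEM4-18. The 3 PC-3-descended values lay above every other array, and the lowest of them, in GS694.LAd, was at least 3.56-fold above TEM4-18. They also held the 71.6th to 85.5th percentile of all probe sets on their arrays, while the TEM4-18-derived values were at the 9.20th and 8.69th. The PC-3-descended sublines averaged 2064 ± 1126 (SD, n = 3) and TEM4-18 averaged 46.5 ± 27.6 (SD, n = 2). Because TEM4-18 was not above background, the difference is a bound of at least 6.04-fold higher against TEM4-18, taking each dim array at the higher of its ceiling and its own signal. Against the TEM4-18-derived sublines the bound was at least 6.26-fold higher. The measured log2 difference from TEM4-18, after an offset of 46.9 was added to every signal, was 4.39.

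Among its 3 expressing sublines, TH was highest in the liver subline and not in the one from the adrenal, the organ whose chromaffin cells use this enzyme. GS689.Li exceeded GS672.Ug by 1.84-fold, which in turn exceeded GS694.LAd by 1.63-fold. As a yardstick, the TEM4-18 duplicates lay within 1.34-fold of each other for 95% of 9902 genes with a mean TEM4-18 signal of at least 500. Both steps are larger than that, though each subline rests on 1 array. Of 8 chromaffin cell markers 7 were matched, and DBH, SLC18A1, PHOX2A, CHRNA3 and HAND2 were not above the ceiling on any array. PNMT, the enzyme that makes adrenaline, was above it in GS672.Ug alone, at 403 against a ceiling of 275. The summed signal of the 7 was 1139 to 2917 in the PC-3-descended sublines, 976 and 998 in the TEM4-18-derived ones and 897 and 1106 in TEM4-18. GATA3, a transcription factor shared with many epithelia, accounted for 2053 of the 2917 in GS672.Ug. It was above the ceiling in all 5 sublines recovered from mice and on neither TEM4-18 array. Its other values were 694 in GS689.Li, 458 in GS694.LAd, 386 in GS683.LALN and 466 in JD1203.Lu, against 292 and 273 in TEM4-18.

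None of the further tested genes of the catecholamine route passed against TEM4-18. Of 17 further listed genes 16 were matched and 11 were tested across all genes in PC-3-descended sublines against TEM4-18. Dopa decarboxylase (DDC) and dopamine beta-hydroxylase (DBH), which act after tyrosine hydroxylase, were not above background on any array, and neither were the transporters SLC18A1 and SLC6A2 nor the oxidase gene MAOB. PNMT, the last enzyme of the route, was above background in GS672.Ug alone, with 403, 48.6 and 318 in the PC-3-descended sublines and 193 and 289 in TEM4-18. DDC reached 21.4, 108 and 40.3 in the PC-3-descended sublines, against 12.0 and 142 in TEM4-18. The enzymes that make and recycle the cofactor of tyrosine hydroxylase, tetrahydrobiopterin, were present on all 7 arrays (GCH1, PTS, SPR, QDPR and PCBD1, with the GCH1 regulator GCHFR). So were the amine-degrading oxidase MAOA and the granule cytochrome CYB561. MAOA was lower in PC-3-descended than in TEM4-18-derived sublines (log2 difference -0.84, limma adjusted p = 0.0422). GCH1, the first enzyme of cofactor synthesis, had 4439, 2568 and 2189 in the PC-3-descended sublines, against 6002 and 6687 in TEM4-18. Its log2 difference of -1.10 ± 0.28 (SE) did not pass (limma adjusted p = 0.0714). The vesicular monoamine transporter SLC18A2 had 759, 314 and 327 in the PC-3-descended sublines and 756 and 813 in TEM4-18 (log2 difference -0.80, limma adjusted p = 0.294). The dopamine transporter gene SLC6A3 had a log2 difference of 0.95 (limma adjusted p = 0.417), with both TEM4-18 arrays below background (125 and 74.3). The median log2 difference of the 11 tested genes was -0.06, beside 0.05 over all 13640 genes.

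**Figure D2:**
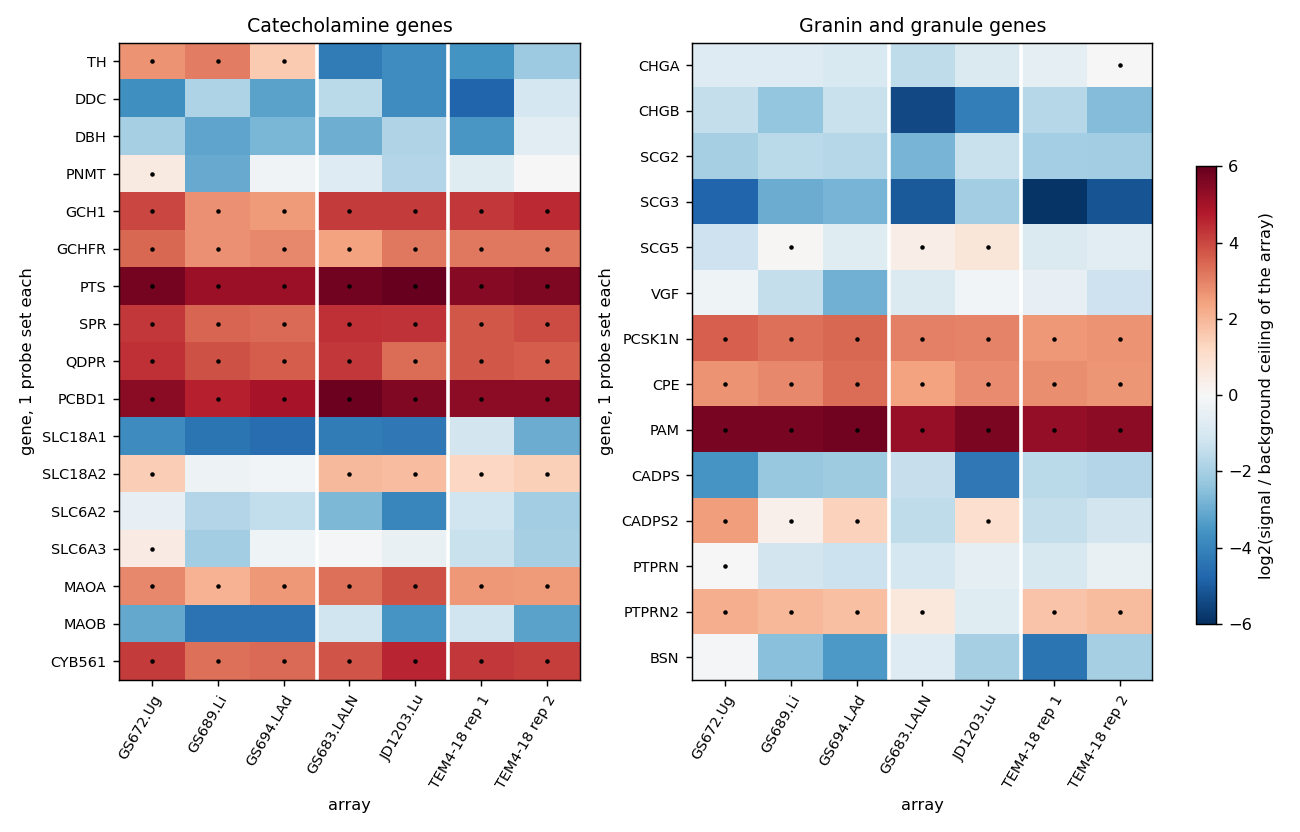
Colour gives log2 of signal over the background ceiling of the same array for the catecholamine genes (left) and the granin and granule genes (right), with arrays along the horizontal axis and a dot where the signal is above the ceiling. TH has dots in the 3 PC-3-descended sublines alone while DDC, DBH and SLC18A1 have none, and CHGB, SCG2 and SCG3 have none either.

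CNTN1 was high in 1 subline. The gene lies at chr12:40692439-41072415 (GRCh38.p14). In its brightest probe set, 227209_at, the signal was 4769 in GS672.Ug, 246 in GS694.LAd and 266 in GS689.Li, against 31.3 in GS683.LALN and 9.75 in JD1203.Lu, and 43.4 and 27.8 in TEM4-18. Only GS672.Ug was above its ceiling. The urogenital subline was at least 15.4-fold higher than TEM4-18 by this probe set. Probe set 211203_s_at gave 2373 in GS672.Ug and 8.59 to 151 on the other 6 arrays, and 227202_at gave 795 in GS672.Ug and 14.2 to 152 on the others, with bounds of at least 7.69-fold and at least 2.57-fold over TEM4-18. The remaining probe set, 1554784_at, was below the ceiling on all 7 arrays, with 202 in GS672.Ug and up to 191 in TEM4-18. Thus 3 of the 4 probe sets placed CNTN1 above background in GS672.Ug and none of the 4 did so elsewhere. With the lower 40th percentile of all probe sets as the ceiling, 227209_at passed on 3 arrays. The probe set 1554784_at then passed on 2, GS672.Ug and TEM4-18 replicate 2.

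The mean log2 difference of the 3 PC-3-descended sublines from TEM4-18 was 3.21 in 227209_at, and it was 1.88 without GS672.Ug. The values of 266 and 246 in GS689.Li and GS694.LAd were under their ceilings of 389 and 371, although they lay above both TEM4-18 arrays. Without the offset the difference was 4.29, and as the mean of the 4 probe sets it was 1.76.

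**Figure D3:**
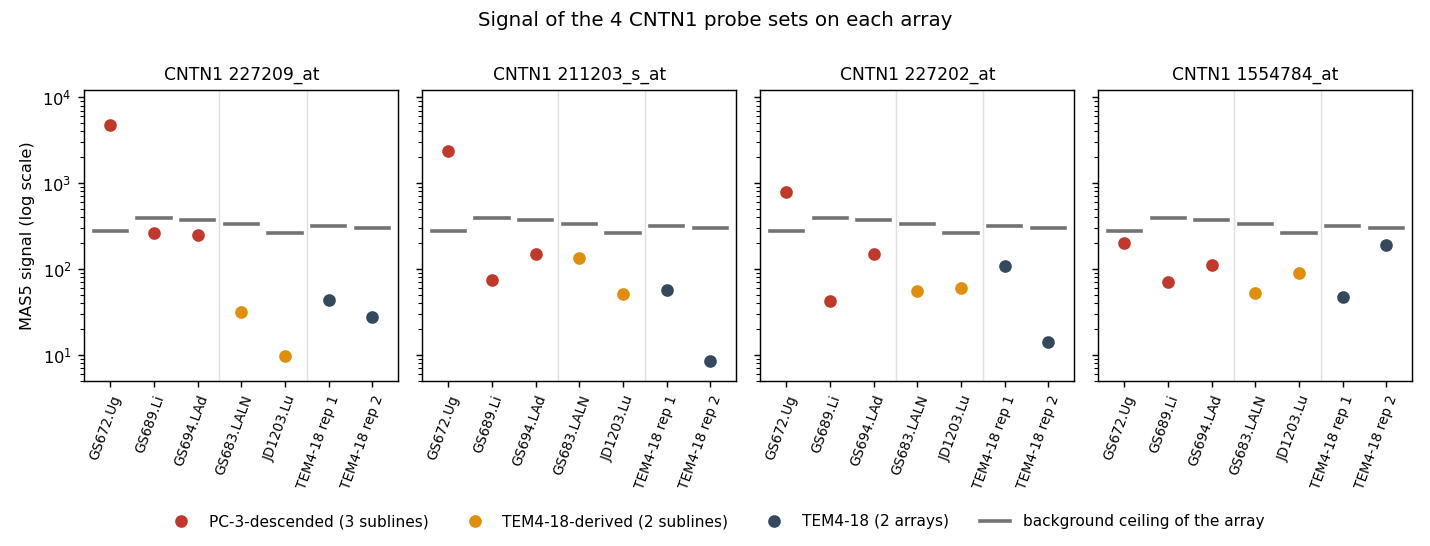
The MAS5 signal (log axis) of the 4 CNTN1 probe sets on each array, from the brightest on the left, with grey bars at the background ceilings. GS672.Ug is above its bar in 3 probe sets (4769, 2373 and 795) and all other points are under theirs.

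None of the tested relatives of CNTN1 passed. Of 20 listed contactins, contactin-associated proteins and related adhesion genes, all were matched and 8 tested, in PC-3-descended sublines against TEM4-18. The 5 other contactins (CNTN2 to CNTN6) and the receptor gene PTPRZ1, a contactin 1 partner, were not above background on any array. NCAM1, a neural adhesion molecule that is also stained for in neuroendocrine tumours, had 222, 558 and 536 in the PC-3-descended sublines against 259 and 226 in TEM4-18, above the ceiling in the liver and adrenal sublines. Its log2 difference was 0.66 (limma adjusted p = 0.468). NRCAM and CNTNAP1 differed by 0.49 and 0.42 (limma adjusted p = 0.654 and 0.332). The list's median log2 difference was 0.05, the same as over all genes.

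DNER was above background in all 5 sublines recovered from mice and on neither TEM4-18 array. With lower ceilings, the panel's 90th percentile and the 40th percentile of all probe sets, it passed on 6 and 7 arrays, so on TEM4-18 too. The gene lies at chr2:229357629-229714555 (GRCh38.p14) and was read by 226281_at. Its signal was 2520 in GS694.LAd, 1918 in GS689.Li and 977 in GS672.Ug, then 717 in GS683.LALN and 1028 in JD1203.Lu, against 219 and 171 in TEM4-18. The 5 in vivo values did not overlap TEM4-18, and the lowest of them, in GS683.LALN, was at least 2.32-fold above TEM4-18. The PC-3-descended sublines averaged 1805 ± 778 (SD, n = 3), the TEM4-18-derived ones 872 ± 220 (SD, n = 2) and TEM4-18 195 ± 33.9 (SD, n = 2). The bounds were at least 5.43-fold higher in the PC-3-descended sublines and at least 2.78-fold higher in the TEM4-18-derived ones, both against TEM4-18. The measured log2 differences were 2.84 and 1.91. In the order of levels, GS694.LAd and GS689.Li were 1.31-fold apart and JD1203.Lu and GS672.Ug 1.05-fold apart, both within the 1.34-fold yardstick of the duplicates, so those pairs are not ordered. The subline from urogenital tissue thus overlapped the TEM4-18-derived pair.

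Around DNER, 25 Notch receptors, ligands, processing enzymes and targets were listed and matched, and 17 were tested. In PC-3-descended sublines against TEM4-18, 1 rose and 1 fell, where 2.38% of all 13640 genes rose and 1.0% fell. HEY1, a transcriptional repressor induced by Notch, had 31178, 47621 and 52079 in the PC-3-descended sublines, against 9728 and 10341 in TEM4-18. It rose by 2.08 ± 0.31 (log2, SE; limma adjusted p = 0.00917), higher in 3 of 3 sublines. HES1, another Notch-induced repressor, had 1699, 1298 and 1725 in the PC-3-descended sublines, against 3470 and 2546 in TEM4-18. It fell by 0.91 ± 0.20 (log2, SE; limma adjusted p = 0.048), lower in 3 of 3 sublines. The other probe set of HEY1 gave a log2 difference of 2.17, and of the other 2 of HES1, 1 gave -0.68 and 1 was below background on all arrays. The receptor NOTCH1 and the ligand JAG1 were above background on all 7 arrays, and JAG1 had a log2 difference of 0.16. The list's median was 0.16.

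In TEM4-18-derived sublines against TEM4-18, none of the 115 tested neural genes passed with limma, where 0.0513% of all genes rose and 0.022% fell (1326 genes at an unadjusted p under 0.05). In its tested probe set HEY1 had 8199 in GS683.LALN and 17264 in JD1203.Lu, on both sides of TEM4-18. Its other probe set, also above background on all 7 arrays, had 3929 and 1414 in these sublines, below the 5256 and 5744 of TEM4-18. The HEY1 probe sets thus disagreed on the direction in JD1203.Lu. HES1 had 3884 in GS683.LALN and 3504 in JD1203.Lu. The difference between PC-3-descended and TEM4-18-derived sublines was itself tested for these 2 genes. It was 1.84 ± 0.31 for HEY1 and -1.22 ± 0.20 for HES1 (log2, SE; limma adjusted p = 0.0152 and 0.0153). DNER was above background in both groups of in vivo sublines and was not tested. HEY1 and HES1 were above background on all 7 arrays, and against TEM4-18 they passed the test in the PC-3-descended group alone. These are unlike measures, so DNER is not set against the 2 genes. Between the 2 groups, 2.16% of all genes were higher in the PC-3-descended sublines and 1.6% lower. Of the tested neural genes 10 were higher and 3 lower, and on the Notch list HES4 (1.10) was higher and the sheddase ADAM17 (-0.87) lower, on the log2 scale. With the mean of its probe sets ADAM17 did not pass (-0.57, limma adjusted p = 0.0681). With probe sets ending in _x_at left out it did not pass either (-0.48, limma adjusted p = 0.166). HES4 did not pass with median centring or with no filter (limma adjusted p = 0.0613 and 0.0834).

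NPY1R was likewise above background in the 5 in vivo sublines and on neither TEM4-18 array, and it passed on all 7 with the 40th percentile of all probe sets as the ceiling. The gene lies at chr4:163323962-163344689 (GRCh38.p14) and was read by 205440_s_at. Its signal was 7172 in GS689.Li, 2236 in the adrenal subline GS694.LAd and 1487 in GS672.Ug, then 707 in GS683.LALN and 825 in JD1203.Lu, against 147 and 213 in TEM4-18. The liver subline was 3.21-fold above the next, the adrenal one, and the lowest in vivo subline, GS683.LALN, was at least 2.29-fold above TEM4-18. The order below was GS694.LAd over GS672.Ug by 1.5-fold, GS672.Ug over JD1203.Lu by 1.80-fold, and JD1203.Lu over GS683.LALN by 1.17-fold, the last step within the yardstick. The PC-3-descended sublines averaged 3632 ± 3089 (SD, n = 3), the TEM4-18-derived ones 766 ± 84.0 (SD, n = 2) and TEM4-18 180 ± 46.1 (SD, n = 2). The bounds against TEM4-18 were at least 9.32-fold and at least 2.47-fold higher, and the measured log2 differences 3.71 and 1.85.

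Of the ligands and other receptors of that family, 1 passed the ceiling, on 1 array. Of 8 listed genes 6 were matched and 2 tested. PYY, NPY2R, NPY5R and NPY6R were not above the ceiling on any array. NPY itself had 114, 333 and 279 in the PC-3-descended sublines, 123 in GS683.LALN and 362 in JD1203.Lu, against 103 and 150 in TEM4-18, and only the lung subline passed its ceiling. NPY had a log2 difference of 0.66 in PC-3-descended sublines (limma adjusted p = 0.583). DPP4, a surface peptidase that trims neuropeptide Y and peptide YY, had 2213, 2761 and 1197 in the PC-3-descended sublines, against 455 and 550 in TEM4-18. It rose by 1.86 ± 0.40 (log2, SE; limma adjusted p = 0.043), higher in 3 of 3 sublines. All 3 DPP4 probe sets moved that way. In the TEM4-18-derived sublines DPP4 had 791 and 343, and the difference between the 2 groups of sublines was 1.80 (log2, limma adjusted p = 0.046).

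CHGA stayed at the edge of background. The gene lies at chr14:92922664-92935285 (GRCh38.p14) and was read by 204697_s_at. Its signal was 229 in GS689.Li, 196 in the adrenal subline and 161 in GS672.Ug, then 115 in GS683.LALN and 147 in JD1203.Lu, against 213 and 303 in TEM4-18. It passed the ceiling on 1 array, TEM4-18 replicate 2, by 303 against 298. It passed on 0 arrays with the ceiling at the panel's 99th percentile, on 2 at the 90th, and on 4 at the 40th percentile of all probe sets. The highest values were those of TEM4-18 and GS689.Li. CHGB (204260_at, chr20:5911510-5925353) had 101, 78.4 and 149 in the PC-3-descended sublines and 7.95 and 15.2 in the TEM4-18-derived ones, against 96.6 and 48.3 in TEM4-18. SYP (213200_at, chrX:49187815-49200193) had 50.4, 46.2 and 114 in the PC-3-descended sublines and 89.3 and 152 in the TEM4-18-derived ones, against 24.1 and 27.1 in TEM4-18. Neither was above the ceiling on any array (SYP was on 1 with the 40th percentile of all probe sets), so their differences between arrays are differences below background and no fold is given. CHGB and SYP did not reach the mean signal of 161 that admitted a gene to the test, and 5 of the 7 members did.

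The rest of the granule machinery was present in part. Of 14 listed granins and granule genes other than CHGA and CHGB, 12 were matched and 8 tested, and 1 rose in PC-3-descended sublines against TEM4-18. PCSK1N, which encodes the granin-like inhibitor of prohormone convertase 1, had 3336, 3900 and 4092 in the PC-3-descended sublines, against 1962 and 1932 in TEM4-18. It rose by 0.93 ± 0.18 (log2, SE; limma adjusted p = 0.0294), higher in 3 of 3 sublines. The peptide-processing enzymes CPE and PAM were above background on all 7 arrays and did not pass. The granins SCG2, SCG3 and VGF and the priming factor CADPS were not above background on any. Its paralogue CADPS2 had 1585, 481 and 970 in the PC-3-descended sublines, 117 in GS683.LALN and 540 in JD1203.Lu, against 119 and 137 in TEM4-18, at least 2.93-fold higher in PC-3-descended sublines than in TEM4-18, which was not above background. The difference did not pass (limma adjusted p = 0.064). PTPRN2, a granule membrane protein, had 1250, 1541 and 1287 in the PC-3-descended sublines and 514 and 159 in the TEM4-18-derived ones, against 1048 and 1105 in TEM4-18. It was higher in PC-3-descended than in TEM4-18-derived sublines by 2.04 ± 0.37 (log2, SE; limma adjusted p = 0.022), with JD1203.Lu under its ceiling of 265.

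No tested synaptic vesicle gene passed. Of 26 listed 24 were matched and 16 tested, in PC-3-descended sublines against TEM4-18. SYN2 (1.36), VAMP2 (1.15) and SV2B (-0.89) had the largest log2 differences (limma adjusted p = 0.134, 0.102 and 0.684). SV2B was below background on both TEM4-18 arrays (252 and 161), so its difference is not measured. In GS694.LAd it went the other way, at 453 and at least 1.47-fold above TEM4-18. VAMP2, a vesicle fusion protein, had 1156, 992 and 854 in the PC-3-descended sublines, against 321 and 548 in TEM4-18. The ubiquitous SYP relative SYPL1 had 25065, 21643 and 20252 in the PC-3-descended sublines, against 27364 and 25608 in TEM4-18.

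No tested marker of neuroendocrine prostate cancer passed. Of 34 listed 32 were matched and 17 tested, and 6 were above background on all arrays, 12 on some and 14 on none. INSM1, a driver of neuroendocrine differentiation, was not above background on any array, and neither were the splicing factor gene SRRM4, the peptide genes GRP, CALCA, SST and NTS, nor MYCN. PROX1 (1.65), MYT1 (0.66) and NCAM1 (0.66) had the largest log2 differences (limma adjusted p = 0.116, 0.617 and 0.468). Both TEM4-18 arrays were below background for PROX1 (122 and 20.6) and for NCAM1 (259 and 226), so those sizes are not measured. ENO2, neuron-specific enolase, was above background on all arrays with 2487, 1132 and 1238 in the PC-3-descended sublines, against 1810 and 1911 in TEM4-18 (log2 difference -0.28, limma adjusted p = 0.7). Its signal was highest in GS672.Ug.

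Among 24 neuronal cytoskeleton and RNA-binding genes, all matched and 15 tested, 2 rose. NOVA1, a neuronal splicing regulator, had 2775, 2127 and 2843 in the PC-3-descended sublines, against 1246 and 1266 in TEM4-18. It rose by 1.00 ± 0.19 (log2, SE; limma adjusted p = 0.0252). ELAVL2, a neuronal RNA-binding protein of the Hu family, had 7278, 6322 and 6030 in the PC-3-descended sublines, against 3661 and 3923 in TEM4-18. It rose by 0.78 ± 0.15 (log2, SE; limma adjusted p = 0.0294). Both were higher in 3 of 3 sublines. The list's median log2 difference was 0.56, with 14 of the 15 tested genes above 0, where 55.4% of all genes were. The intermediate filament gene NES and the neuronal tubulin gene TUBB3 did not pass against TEM4-18 (limma adjusted p = 0.097 and 0.0714) and were higher in PC-3-descended than in TEM4-18-derived sublines, by 1.36 ± 0.20 and 0.84 ± 0.15 (log2, SE; limma adjusted p = 0.00962 and 0.0184). With the mean of its probe sets TUBB3 did not pass between these groups of sublines (0.66, limma adjusted p = 0.0776).

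REST, the repressor that keeps many neuronal genes silent outside the nervous system, did not pass. It had 3284, 3318 and 3312 in the PC-3-descended sublines, 2956 and 2469 in the TEM4-18-derived ones, and 3130 and 3009 in TEM4-18. Its log2 difference was 0.11 ± 0.15 (SE) in PC-3-descended sublines against TEM4-18 and -0.18 in the TEM4-18-derived ones (limma adjusted p = 0.778 and 0.757). Of 15 listed genes of REST and its corepressors 14 were matched and tested and 1 rose. RCOR1, the corepressor CoREST, had 5779, 8117 and 6222 in the PC-3-descended sublines, against 3747 and 3781 in TEM4-18. It rose by 0.81 ± 0.18 (log2, SE; limma adjusted p = 0.0464). The histone deacetylase gene HDAC2 had 513 in JD1203.Lu and 9979 to 13856 on the other 6 arrays. Of 13 androgen-related and luminal genes 10 were matched and 8 tested, and none passed against TEM4-18. TMPRSS2 (-1.99), KLK3 (0.77) and KLK2 (0.57) had the largest log2 differences (limma adjusted p = 0.239, 0.0585 and 0.527).

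**Figure D4:**
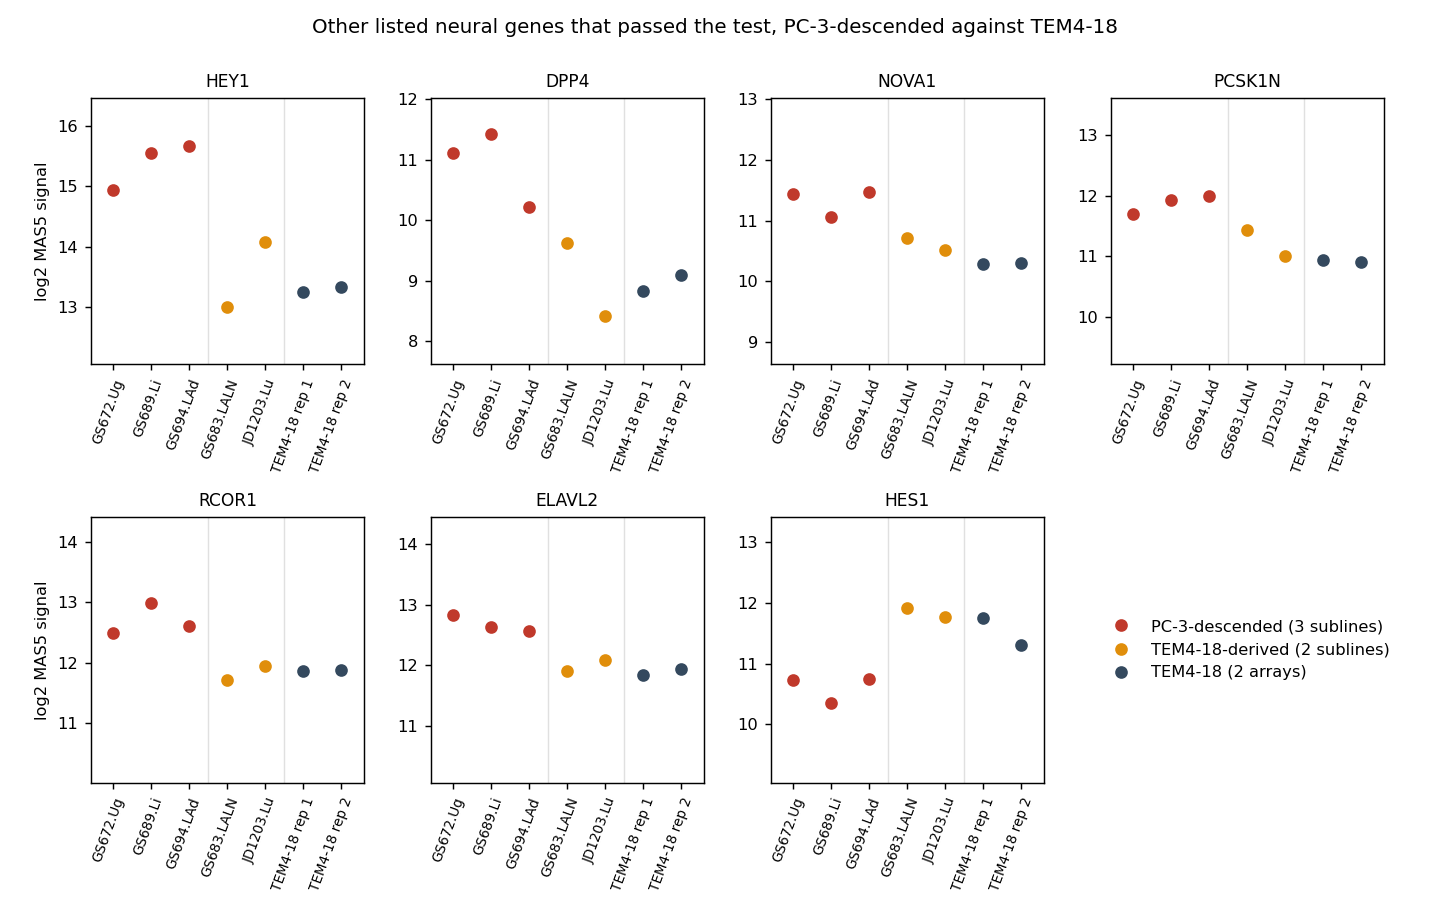
Log2 MAS5 signal on each array of the 7 further neural genes that passed in PC-3-descended sublines against TEM4-18, each panel spanning the same range around its own mean. The 3 PC-3-descended points lie above both TEM4-18 points for 6 genes and below them for HES1.

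Over all lists, 195 further neural genes were considered, 182 matched and 115 tested, and 66 were above background on every array and 69 on none. In PC-3-descended sublines against TEM4-18, 6 of the 115 rose and 1 fell, against the shares of 2.38% and 1.0% of all genes given above. Their median log2 difference was 0.26, with 80 above 0, beside 0.05 and 55.4% above 0 over all genes. None passed between the 5 in vivo sublines and TEM4-18, where 0.0% of all genes did with limma (1136 genes at an unadjusted p under 0.05). These calls rest on few arrays: without either TEM4-18 array none of the 115 passed, without GS689.Li 1 and without GS694.LAd 2 passed, and without GS672.Ug, GS683.LALN or JD1203.Lu 12 passed. None passed with GS689.Li and GS694.LAd averaged to 1 sample. When arrays were centred on their medians, the median of all genes moved by more than 0.1, to -0.14, calls over all genes became 216 higher and 316 lower in place of 324 and 137, and 4 of the 115 passed. Between the 2 groups of sublines, that centring gave 187 higher and 452 lower in place of 295 and 218. The count of 13 listed genes in that comparison became 0 without GS689.Li, 2 without GS694.LAd, 4 without either TEM4-18 array, and 20 without GS672.Ug.

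Of the marker lists for other cell types, 1 of 4 tested hepatocyte genes and 2 of 3 tested endothelial genes rose in PC-3-descended sublines against TEM4-18. Of all genes 2.38% did. SERPINA1, the liver-secreted protease inhibitor, had 2537, 2860 and 3796 in the PC-3-descended sublines, against 222 and 252 in TEM4-18, which are below background (at least 9.78-fold higher, limma adjusted p = 0.00101). The endothelial receptor gene KDR had 6380, 4792 and 4535 in the PC-3-descended sublines, against 998 and 763 in TEM4-18 (2.51 ± 0.46; limma adjusted p = 0.0227). PECAM1, another endothelial gene, rose by 1.19 ± 0.22 (log2, SE; limma adjusted p = 0.0222). ESAM, the other tested endothelial gene, did not pass. It had 264, 2489 and 1285 in the PC-3-descended sublines, against 607 and 628 in TEM4-18, and was below background in GS672.Ug. The hepatocyte list (8 of 8 matched) summed to 3503 to 5121 in PC-3-descended sublines, 1326 and 1030 in TEM4-18-derived ones and 1128 and 1075 in TEM4-18, most of it SERPINA1 in the PC-3-descended sublines, and ALB, APOA1, APOB, FGB and TF were below background on all arrays. The endothelial list (7 of 7 matched) summed to 8043 to 9130 in PC-3-descended sublines, 2496 and 4193 in TEM4-18-derived ones and 2330 and 2365 in TEM4-18, with CDH5, VWF, TEK and CLDN5 below background on all arrays. The part of such cells in the neural levels was not tested.

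Each in vivo subline was also set beside TEM4-18 by size alone, counting a gene that lay at least 2-fold from the TEM4-18 mean and outside both duplicates. The choice of members used these values, so the counts are given without a reading. In GS672.Ug, 4 of the 7 members were higher and 0 lower, where 6.11% of all tested genes were higher and 2.27% lower. In the liver subline GS689.Li they were 4 and 0 (7.73% and 2.44%), and for the adrenal subline 5 and 0 (7.9% and 2.71%). For GS683.LALN they were 2 and 1 (2.53% and 3.18%), and for JD1203.Lu 3 and 0 (4.61% and 4.13%). The higher members were TH, CNTN1, DNER and NPY1R in the PC-3-descended sublines, and DNER and NPY1R in the TEM4-18-derived ones. CNTN1 was below background in GS689.Li and GS694.LAd. SYP added to the counts of GS694.LAd and JD1203.Lu and CHGB to the lower one of GS683.LALN, also below background.

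**Figure D5:**
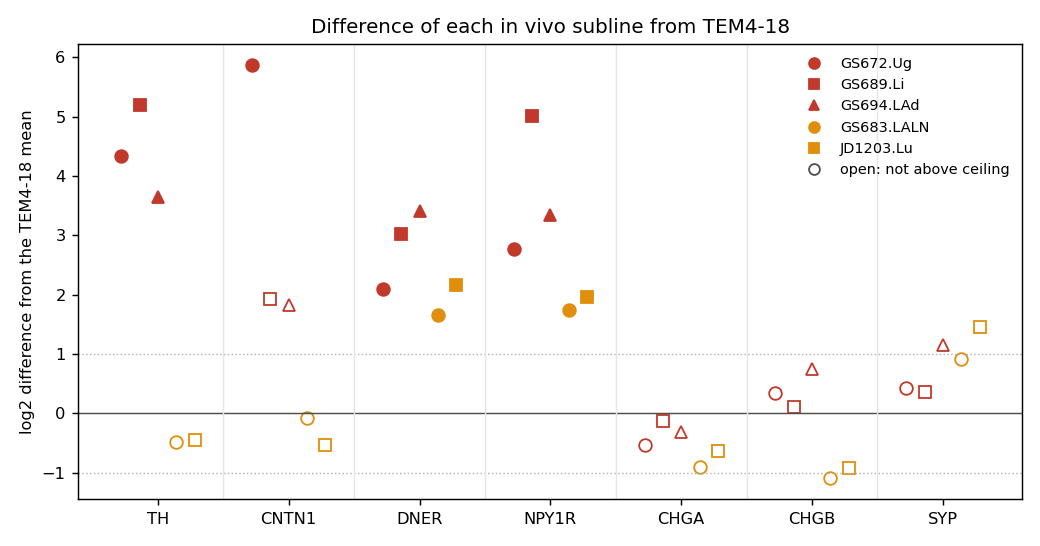
Log2 difference of each in vivo subline from the mean of TEM4-18 (offset 46.9 added) for the 7 genes, with filled points above the subline's background ceiling and open points not above it, and dotted lines at 2-fold. The filled points of TH lie between 3.65 and 5.20, those of DNER between 1.66 and 3.41 and those of NPY1R between 1.75 and 5.01, while CHGA, CHGB and SYP have open points alone.

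Among the further neural genes furthest from TEM4-18 in single sublines, some recurred, with 1 array behind each value. TMPRSS2, an androgen-regulated protease gene, was at least 2-fold lower in all 5 sublines, CADPS2 higher in 4 and HEY1 and DPP4 in the 3 PC-3-descended ones. A bound is given where the dimmer side was not above background, and other folds use the offset. TMPRSS2 was 2.18-fold lower in GS672.Ug, 5.48-fold in GS689.Li, 5.21-fold in the adrenal subline and 3.06-fold in JD1203.Lu, and at least 7.91-fold lower in GS683.LALN, at 44.6 against 2887 and 2439 in TEM4-18. CADPS2 was at least 5.13-fold higher in GS672.Ug, at least 1.56-fold in GS689.Li, at least 3.14-fold in the adrenal subline and at least 1.75-fold in JD1203.Lu. DPP4 was 4.13-fold, 5.13-fold and 2.27-fold higher in the PC-3-descended sublines than in TEM4-18, and HEY1 3.10-fold, 4.73-fold and 5.17-fold. GS672.Ug also had SLC6A3 at least 1.26-fold above TEM4-18, and PROX1 at 290 against 122 and 20.6 in TEM4-18, with no fold since the TEM4-18 ceilings exceed it. GS689.Li had SYN1 and the adrenal subline had DLK2 2.5-fold and 2.53-fold above TEM4-18, where 1 of the 2 TEM4-18 arrays was above background, and the adrenal subline had GCH1 2.86-fold below. GS683.LALN had PTPRN2 2.00-fold below, and the granule protein gene SCG5 at least 1.41-fold and RBFOX1 at least 1.45-fold above. JD1203.Lu had HDAC2 24.2-fold, NOTCH2 3.12-fold and PTPRN2 at least 4.06-fold below.

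The 3 genes whose pattern was most like each member were found by Pearson's r over the 7 arrays, which share the grouping of the sublines. For TH they were IER5 (r = 0.991), RAB2A (0.991) and PAQR5 (0.990), the last with 1352, 1260 and 963 in the PC-3-descended sublines, 190 and 173 in the TEM4-18-derived ones and 235 and 264 in TEM4-18. For CNTN1 they were ANHX (0.985), VWA5A (0.984) and CLUH (0.979), each highest in GS672.Ug. For DNER they were ADGRG1 (0.993), REEP5 (0.988) and HEIH (0.985), and for NPY1R UBE2J1 (0.991), ROBO4 (0.989) and FOXP1 (0.988). For CHGA they were BCKDK (0.974), IL11RA (0.969, and 0.772 without TEM4-18 replicate 1) and TXLNA (0.950). CNTN1 and CHGA were each above background on 1 array. The likeness of CNTN1 leans on its 1 bright array, GS672.Ug, and that of CHGA rests largely on values below background. Counts of genes with r above 0.95 were 70 for TH, 26 for CNTN1, 57 for DNER, 36 for NPY1R and 3 for CHGA. Between members, r was 0.912 for DNER and NPY1R, 0.830 for TH and NPY1R and 0.675 for TH and DNER.

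None of the tested neighbours of the 4 high members passed. The median log2 difference of the 10 nearest tested genes, 5 on each side, in PC-3-descended sublines against TEM4-18 was 0.22 around TH, 0.04 around CNTN1, -0.04 around DNER and 0.01 around NPY1R. The nearest on each side were MRPL23 (-0.38) and TSPAN32 (0.35) for TH, SLC2A13 (-0.38) and GXYLT1 (-0.90) for CNTN1, PID1 (0.74) and TRIP12 (0.06) for DNER, and NAF1 (0.10) and TMA16 (-0.18) for NPY1R. Around CHGA the 10 neighbours had a median of 0.62, all 10 were above 0 and 2 passed, while CHGA itself had -0.33. Its nearest neighbours were LINC02287 (0.06) and ITPK1 (0.97). The medians were -0.09 around CHGB (SHLD1 0.10, TRMT6 -0.32) and 0.08 around SYP (PRICKLE3 -0.22, CCDC22 -0.08). NOVA1 and RCOR1, which rose, and GCH1 also lie on chromosome 14.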

How the data were processed

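Total RNA of 7 cultures was measured on 1-colour Affymetrix arrays. The deposited values are intensity values on a linear scale, made with MAS5 per the submitters' processing notes (version not given in the sources used here); detection calls were not used here. The 7 members and all lists were chosen with earlier results of these data known. Of 54675 probe sets, 41097 had 1 gene symbol, 1801 several and 11777 none in the platform table, and symbols were updated through RefSeq (GRCh38.p14). Signals were put on the log2 scale after adding 46.9 (their 20th percentile). Genes were read by the probe set of highest mean, if that mean reached the 40th percentile (161), which left 13640. limma 3.58.1 (R 4.3.3; lmFit, eBayes with trend) fitted 3 groups on all 7 arrays, and 2 groups for the 5 in vivo sublines against TEM4-18, with 2-sided Benjamini-Hochberg adjusted p under 0.05 over all genes. Within-group spread joins the TEM4-18 duplicates with different sublines, so p-values measure only the spread between these arrays. Single sublines were compared by size (at least 2-fold, outside both duplicates).

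Genes were named by rule: all members; listed genes that passed, up to 4 per direction, or the 3 of largest difference where none did; REST, ENO2 and 1 gene not analysed here; the 3 genes most correlated with each member above background; the nearest tested neighbours; and up to 5 listed genes per subline. Genes named as below or above background, SYPL1, CPE, PAM, NOTCH1, JAG1, NES, TUBB3 and PECAM1 were chosen after their values were seen. Marker lists for adrenal cortex, glia, leukocytes, fibroblasts, lung epithelium and kidney tubule had 0 genes that passed. Alternatives changed the offset, scaling, filter, probe set rule, background ceiling and arrays used; those for PC-3-descended against TEM4-18-derived sublines were chosen after seeing the data.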

Additional observations from a re-analysis of the deposited data

Results flagged for a closer look

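CNTN1 in GS672.Ug was flagged by probe set 211203_s_at and is given by description only, since CNTN1 was chosen for standing out on these arrays. Among the 5 in vivo sublines, its gap to the nearest other subline was 0.782 of the whole range on the log2 scale. The gaps by 227209_at and 227202_at were 0.616 and 0.646. The other 4 sublines were below background in all 3, so the range holds background values. A gap above 0.71 was flagged, which chance alone gives in about 1 in 20 groups of values not picked for standing out. That rate does not apply to CNTN1, which was picked that way, and 17 probe sets were examined.

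For 13 listed neural genes the difference between PC-3-descended and TEM4-18-derived sublines passed the test (limma adjusted p under 0.05). On the log2 scale it was 2.65 for CTDSPL, 2.04 for PTPRN2, 1.84 for HEY1, 1.80 for DPP4, 1.36 for NES and 1.10 for HES4. It was 0.847 for RCOR1, 0.844 for both TUBB3 and HOXB13, 0.673 for ELAVL2, -0.839 for MAOA, -0.869 for ADAM17 and -1.22 for HES1. When genes were read by the mean of their probe sets, MAOA, ADAM17, TUBB3 and HOXB13 did not pass (limma adjusted p = 0.0982, 0.0681, 0.0776 and 0.0728). CTDSPL, a small phosphatase gene of the REST complex, had 385, 464 and 311 in PC-3-descended sublines and 20.6 and 22.3 in TEM4-18-derived ones, above background in 2 of the 7 arrays. Its TEM4-18-derived values are background, so the size is not measured: it was 1.17 with the offset at the median and 4.15 with no offset. MAOA had 2008, 1661 and 2225 in PC-3-descended sublines and 3296 and 3775 in TEM4-18-derived ones.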

How the results depend on the processing

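The log2 differences of TH, CNTN1, DNER and NPY1R between PC-3-descended sublines and TEM4-18 kept their sign in all 13 alternatives: TH 2.78 to 5.47, CNTN1 1.76 to 4.29, DNER 2.09 to 3.22 and NPY1R 2.84 to 4.18. For TH the lowest value came with the offset at the median and the highest with no offset. Member probe sets above background numbered 6 to 9 over the other ceilings. No difference of these 4 or of the listed genes that passed changed sign, but the split of calls over all genes did turn. With median centring it was 216 higher and 316 lower in PC-3-descended sublines against TEM4-18 (main 324 and 137), and 187 and 452 against TEM4-18-derived sublines (main 295 and 218). In TEM4-18-derived sublines against TEM4-18 it was 55 and 90 without GS683.LALN and 12 and 28 without JD1203.Lu (main 7 and 3). Of 16 alternatives HEY1 passed in 12, NOVA1 in 11, PCSK1N in 10, ELAVL2 and RCOR1 in 9, DPP4 in 8 and HES1 in 7. Leaving out 1 array gave 31 to 936 genes called in PC-3-descended sublines against TEM4-18 (main 461), 2 to 145 in TEM4-18-derived sublines (10), 0 to 14 in the 5 in vivo sublines (0), and 0 to 12 listed neural genes (7). It gave 0 to 20 listed neural genes called between PC-3-descended and TEM4-18-derived sublines (13). With GS689.Li and GS694.LAd averaged these were 151 genes and 0 listed neural genes against TEM4-18, and 2 listed genes between the groups of sublines. The 5 in vivo sublines had 4 genes called with no offset and 5 with median centring. Listed neural genes called were 4 with median centring and 4 with no filter. Genes at least 2-fold from TEM4-18 numbered 1142, 1387, 1448, 779 and 1193 in GS672.Ug, GS689.Li, GS694.LAd, GS683.LALN and JD1203.Lu. They numbered 514, 592, 637, 236 and 398 with the offset at the median, 2223, 2511, 2736, 1643 and 2219 with no filter (more genes tested), and 522, 667, 689, 330 and 517 with the filter at the 60th percentile (fewer genes tested). The cause of the other changes was not tested. No paired analysis was possible because only TEM4-18 has numbered replicates. Signals under the ceiling have no usable order, and 1 array per subline gives no spread.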
